A study of Mus musculus with 16 samples.

Results

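Liver tumors of mice on a normal diet were compared with nontumor liver of mice on the same diet. The comparison used 8 of the 16 RNA-seq libraries of the study, 4 from tumor and 4 from nontumor tissue, chosen by their diet and tissue labels alone. It covered the 13432 of 20601 listed genes whose deposited level reached 1 TPM, a read count scaled to transcript length and library size, in at least 4 of the 16 libraries. All mice of the series carried a hepatocellular carcinoma induced by hydrodynamic delivery of 2 plasmids, one for human N-Ras (19 µg per mouse) and one for human c-Myc (1 µg). A plasmid for the Sleeping Beauty transposase (2 µg), which inserts the transgenes into the DNA of transfected hepatocytes, was given with them. After 4 weeks the normal diet (ND) groups stayed on normal chow and the ketogenic diet (KD) groups received for 4 weeks a diet made of fat (89.5%) and protein (10.4%) with 0.1% carbohydrate. Tissue was taken at week 8. The nontumor samples therefore came from livers that had received the same plasmids, and untreated liver was not analysed here. Strain, sex, age and the promoters of the constructs are not given in the sources used here. The labels do not say which samples came from the same mouse or whether nodules were pooled, so the spread behind each p-value may be technical in part.

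A hepatocyte's gene program depends on its place in the lobule and on hormones. WNT ligands and R-spondin made by endothelium of the central vein act through beta-catenin on the hepatocytes around it, and pituitary growth hormone acts through JAK2 and STAT5 to set the output of insulin-like growth factor and, in male mice, of urinary proteins. Oncogenic RAS and high MYC drive growth and are known to engage the brakes of the cell cycle, p53 with its targets and the Ink4 inhibitors. The vessels that feed a liver carcinoma are known to lose the fenestrated character of sinusoids and to become capillary-like.

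Whole reads recovered from the TPM steps gave 3518966 to 8686548 reads over the listed genes in ND nontumor libraries and 6850905 to 9772625 in ND tumor libraries. The listed genes of nontumor replicate 4 held 7.38% of its TPM total, against 73.4% to 84.3% in the other nontumor and 49.96% to 66.5% in the tumor libraries. Levels below are TPM divided by the median-of-ratios factor of the library (rescaled TPM), so that a change is relative to the median gene. Fold changes are log2(rescaled TPM + 1) differences, tumor minus nontumor, with their SE from limma, and genes said to rise, fall or pass had a Benjamini-Hochberg adjusted p under 0.05 over all 13432 genes. The added 1 makes the log2 change of low genes smaller than the true one. On the deposited scale the median change of all genes was 0.42 in place of 0.00, and log2 changes of the 4734 genes with means of at least 10 in both groups were higher by a median of 0.60. With every library brought to the same sum over listed genes (common sum) the 2 values were 0.21 and 0.24. Both tissues expressed the defining liver gene Alb, albumin, at 15861 to 34085 in nontumor and 24220 to 49706 in tumor, and it did not pass (0.43 ± 0.55). Of the 20 tested hepatocyte markers 9 fell and 1 rose (median -0.92, and -0.26 as deposited with 4 lower). Mouse Myc (-0.06 ± 0.40) and Nras (0.29 ± 0.15) did not pass, and the human transgenes are not among the listed genes.

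A total of 3852 genes (28.7% of those tested) passed, 1953 (14.5%) higher and 1899 (14.1%) lower in tumor. The 4 tumor values lay wholly above or below the 4 nontumor values for 3691 genes (27.5%). The changes were often large, since 2069 of the genes that passed had an estimated log2 change of at least 1 in size, 1058 higher and 1011 lower. This was a cut on the estimate and not a test against that size. Counts of higher and lower genes depended on the scale. As deposited, 1094 genes were higher and 324 lower, with 1324 of the 1418 shared with the calls above and none called in the opposite direction. With a common sum 2610 were higher and 1091 lower. Left out in turn, the 8 libraries gave 3086 to 3813 genes. Counts in each list below are to be read against the shares over all tested genes, 14.5% higher, 14.1% lower and 27.5% without overlap. In bulk tissue, fewer cells of a type and less RNA per cell cannot be told apart, and this holds for every group of genes below.

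**Figure D1:**
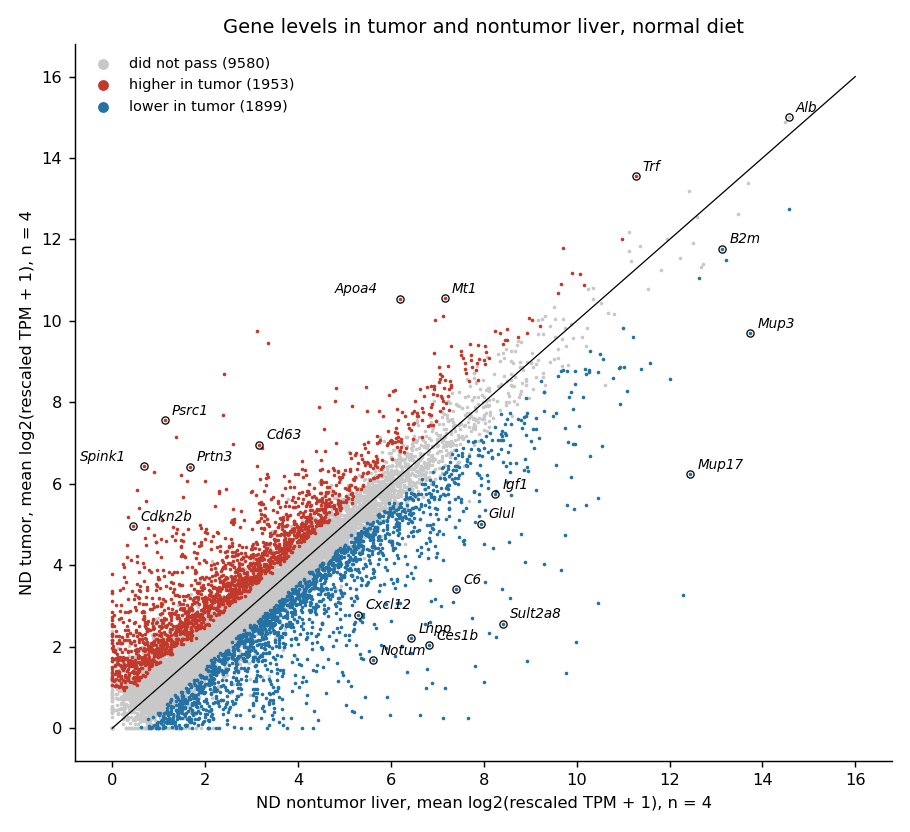
Mean level of each of the 13432 tested genes in nontumor (x axis) and tumor liver (y axis) on the normal diet, as log2(rescaled TPM + 1) over 4 libraries each; genes higher in tumor are red, genes lower are blue, genes that did not pass are grey, and labels mark genes described in the text. Mup17, Mup3 and Sult2a8 lie at the lower right and Psrc1 and Spink1 at the upper left, far from the diagonal of equal levels.

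Among the largest rises, several genes went from near absence to high levels. Psrc1, which encodes a spindle protein, stood at 0.494, 1.5, 0.672 and 2.67 rescaled TPM in nontumor replicates 1 to 4 and at 159.8, 149.5, 219 and 237 in tumors (6.43 ± 0.44, adjusted p = 6.34e-08). Spink1, a secreted trypsin inhibitor, went from 0, 0, 1.97 and 1.3 to 108, 139, 66.1 and 53.9 (5.74 ± 0.58). In both genes every tumor stood far above every nontumor library. Sprr1a, a small proline-rich protein of squamous epithelium, was at 0, 0.545, 0.765 and 3.52 in nontumor and 239, 27.2, 31.7 and 172 in tumor (5.39 ± 0.77), with tumors 1 and 4 far above tumors 2 and 3. Prtn3, known as a neutrophil protease gene, was at 2.24, 1.52, 1.9 and 3.27 in nontumor and 102, 70.8, 71.1 and 101 in tumor (4.76 ± 0.29, adjusted p = 2.85e-08), a narrow range within each group. Of the 7 tested neutrophil markers 0 passed in limma (0 at an unadjusted p under 0.05), and 0 passed with voom on recovered reads. Tmem54 (5.34 ± 0.66), Akr1c18 (5.29 ± 0.62), a hydroxysteroid dehydrogenase, and Tspan8 (4.74 ± 0.70), a membrane tetraspanin, were also among the 15 largest rises. So were the P450 genes Cyp2a4 (6.63 ± 0.90) and Cyp2b9 (5.77 ± 0.73), Ly6d (6.29 ± 0.90), a surface protein gene, and Lcn2 (6.09 ± 0.87), an iron-carrier-binding lipocalin. Without nontumor replicate 4 the changes of Cyp2a4, Cyp2b9 and Ly6d were 7.54, 6.6 and 6.89. Nontumor replicate 4 had the highest of the 4 nontumor values in 54 of the 74 called genes with a log2 rise over 3, against 4071 (30.3%) of all tested genes.

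Several genes were listed at 0 in all 4 libraries of a group. Adm2, a peptide hormone of the calcitonin family, was at 0 in every nontumor library and at 7.7, 8.38, 10.8 and 10.7 rescaled TPM in tumors. Bex2 (0 and 4.71, 6.13, 4.18 and 8.28) and Dlx4 (0 and 6.11, 4.05, 2.91 and 3.45), a homeobox factor, had the same pattern. In the other direction Obp2a, an odorant-binding lipocalin, stood at 5.96, 28.6, 58.3 and 12.1 in nontumor liver and at 0 in the 4 tumors. Lrit2 stood at 8.96, 11.9, 8.26 and 7.79 in nontumor liver and was also at 0 in the tumors. The groups did not overlap in these 5 genes, as the rule that chose them requires. Of all tested genes, 19 lay under 0.5 in every nontumor library and at 2 or more in every tumor, and 19 lay the other way. Acot1, a fatty acyl-CoA thioesterase, belonged to the second set, with 8.58, 15.3, 14.3 and 7.83 in nontumor against 0.163, 0.202, 0 and 0.0693 in tumor (-3.45 ± 0.28, adjusted p = 3.73e-07). So did Slc1a2, the glutamate uptake carrier of pericentral hepatocytes, with 13.6, 13.6, 12.8 and 8.23 against 0.194, 0.211, 0.151 and 0.197 (-3.43 ± 0.24, adjusted p = 8.12e-08).

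The largest falls clustered on the chromosomes. A run of 17 adjacent tested genes of the major urinary protein cluster, all lower, spanned chr4:60066469-61800237 (GRCm38), with a median change of -5.26. It held Mup11, the gene with the largest fall (-9.02 ± 0.35). Another member, Mup17, went from 5729, 18677, 9062 and 991 to 75.4, 34.1, 135 and 86.9 rescaled TPM (-6.21 ± 0.79), with nontumor replicate 4 the lowest of its group and still above every tumor, and a change of -7.04 without it. Outside that run, Mup3 fell from 11521, 16785, 19282 and 9265 to 584, 1074, 548 and 1403 (-4.03 ± 0.45, adjusted p = 7.39e-06). Mup20, whose product is the male pheromone darcin, went from 6046, 8663, 6927 and 4474 to 1939.7, 3592, 1457 and 2066 (-1.57 ± 0.48, adjusted p = 0.021), and it did not pass without nontumor replicate 2, tumor 1 or tumor 3, where the highest adjusted p was 0.0657. A run of 9 neighbouring Cyp2c genes at chr19:39269405-40113950 were lower with a median of -4.24, and 6 Ces1 genes at chr8:93056728-93337308 with a median of -3.03. Members of these families share sequence, and how reads were split between close copies was not stated. The longest run of higher genes, 7 at chr11:6525591-7213923, held Snhg15, Ccm2, Tbrg4, Ramp3, Adcy1, Igfbp1 and Igfbp3 (median 1.84). As deposited, Mup20 did not pass.

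Genes of WNT signalling were lower in tumor. Of 25 tested members of the list 16 fell and 1 rose (median -1.06, against 0.00 for all genes). Notum, a secreted WNT-inactivating enzyme and WNT target of pericentral hepatocytes, stood at 36, 47.8, 54.3 and 56.7 rescaled TPM in nontumor replicates 1 to 4 and at 1.77, 2.14, 3.21 and 1.86 in tumors (-3.94 ± 0.21, adjusted p = 1.13e-08). The highest tumor value was 3.21 and the lowest nontumor value 36.0. Axin2, the general feedback target of beta-catenin, was at 5.6, 6.3, 7.05 and 10.5 against 0.463, 0.18, 1.11 and 0.37 (-2.45 ± 0.28, adjusted p = 9.39e-06). Tbx3, a T-box factor of the pericentral zone, fell from 22, 30.5, 32.3 and 39.7 to 1.09, 2.57, 1.11 and 1.39. Sp5, a zinc finger target gene, stood at 4.84, 8.26, 9.78 and 2.7 in nontumor liver and at 0 in all 4 tumors. Glul, the glutamine synthetase of the hepatocyte layer next to the central vein, fell from 166, 330.1, 329 and 199 to 32.9, 34.7, 32.9 and 26.2 (-2.92 ± 0.25, adjusted p = 7.26e-07), and the 4 tumors were nearly alike.

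Several ligands and receptors of the pathway were lower, but not all. The R-spondin gene Rspo3, a product of central vein endothelium, stood at 2.03, 2.84, 3.12 and 1.38 rescaled TPM in nontumor and 0, 0, 0.989 and 0.396 in tumor. The endothelial ligands Wnt2 (-0.86 ± 0.28) and Wnt9b (-1.15 ± 0.28) fell, as did the R-spondin receptor Lgr5 (-1.23 ± 0.25) and Znrf3 (-1.21 ± 0.16), a ubiquitin ligase that removes WNT receptors. Wnt2 did not pass without nontumor replicate 2 or 3 or tumor 1 or 3, with a highest adjusted p of 0.0973. The one list member that rose was the WNT receptor gene Fzd4 (4.62, 3.95, 3.45 and 2.11 against 9.24, 7.53, 5.48 and 7.83, 0.92 ± 0.19), and the receptor genes Fzd5 (-0.10 ± 0.17) and Fzd6 (0.22 ± 0.19) did not pass. Rspo3, Wnt2, Wnt9b, Lgr5 and the Fzd genes were named for their roles after their values were seen. Ctnnb1, which encodes beta-catenin itself and is on another list, rose (0.93 ± 0.21, adjusted p = 0.00291), and the nuclear partner Tcf7l2 did not pass (-0.41 ± 0.17, adjusted p = 0.0768). The sinusoidal endothelial markers, which include Wnt2, were lower as well (10 of 16 fell and none rose, summed level 193 to 234 in nontumor and 106 to 124 in tumor), and their part in the ligand values was not tested. On the deposited scale 7 list members fell and none rose (median -0.77). As deposited, Rspo3, Wnt2, Wnt9b, Lgr5, Znrf3, Fzd4 and Ctnnb1 did not pass.

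The 250 bases before the RefSeq start of Sp5, the WNT target that went to 0, are shown with the letters CTTTGAT, the core that TCF factors are known to bind, in capitals (GRCm38.p6, chr2:70474673-70474922, plus strand). The match begins 104 bases before the start. It occurs on either strand in 4.29% of the 27025 genes in the promoter table and in 3.05% of the tested genes. It is in 4.59% of called lower, 2.39% of called higher and 2.88% of not called genes. Past a log2 change of 2 it is in 6.31% of called lower and 1.65% of called higher genes. Of the 16 WNT list members with a promoter in the table, 1 has it.
Sp5: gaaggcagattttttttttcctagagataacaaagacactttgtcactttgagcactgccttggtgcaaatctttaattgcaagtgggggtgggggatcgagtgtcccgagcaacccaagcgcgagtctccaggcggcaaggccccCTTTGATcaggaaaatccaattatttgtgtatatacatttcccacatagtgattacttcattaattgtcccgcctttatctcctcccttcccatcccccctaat

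The growth hormone axis was lower at several levels. Ghr, the growth hormone receptor, stood at 30.4, 43.5, 53.1 and 27.8 rescaled TPM in nontumor and 5.94, 8.17, 8.42 and 10.5 in tumor (-2.08 ± 0.28, adjusted p = 5.57e-05). Igf1, the circulating growth factor and a known target, was at 236, 339, 389 and 265 against 41.5, 70.2, 42.9 and 62.4 (-2.49 ± 0.35, adjusted p = 7.4e-05). Igfals, the subunit that holds this factor in plasma, was at 26.6, 55.5, 56.8 and 33 against 3.42, 7.62, 3.97 and 6.05 (-2.79 ± 0.43). For these genes every tumor was below every nontumor library. Socs2, the feedback inhibitor of the receptor, was at 34.8, 27.7, 27.1 and 27.5 against 7.4, 6.47, 6.84 and 5.83 (-1.98 ± 0.24). Nontumor replicate 1 stood above the other 3, and the groups did not overlap. The prolactin receptor gene Prlr fell (-2.07 ± 0.26), and so did Stat5a (-0.76 ± 0.19), while Stat5b (-0.11 ± 0.19, adjusted p = 0.698) did not pass. Among the carrier proteins Igfbp2 fell (-2.05 ± 0.46). Igfbp3, the main plasma carrier, rose from 42.7, 20.1, 20.1 and 14.8 to 225, 103, 94.3 and 313 (2.79 ± 0.52, adjusted p = 0.000755), and Igfbp1, a product of stressed or fasted liver, rose too (1.52 ± 0.42). Stat5a, Stat5b, Igfbp2 and Igfbp1 were named for their roles after their values were seen. In the list of 29 tested genes, 10 fell and 3 rose (median -0.33). On the deposited scale the median was 0.21, with 2 lower and 2 higher. The hepatocyte marker list had a summed level of 50630.0 to 88877 in nontumor and 71599 to 128030.0 in tumor. Abundant members such as Alb weigh most in this sum, while 9 of the 20 markers fell and 1 rose (median -0.92, and -0.26 as deposited). The part of hepatocyte content in the growth hormone axis values was not tested. As deposited, Ghr, Igf1, Socs2, Stat5a and Igfbp2 did not pass.

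The bases before the start of Igfals are shown with the letters TTCNNNGAA, the palindrome that STAT factors are known to bind, in capitals (GRCm38.p6, chr17:24877594-24877843, plus strand, 1 of 3 windows listed for the gene). The match begins 236 bases before the start. It is present in 9.55% of all promoters, in 8.28% of tested genes, and in 8.36% of called lower and 8.07% of called higher genes. It is also in 6 of the 27 members of the growth hormone list with a promoter (Akt2, Bcl6, Cish, Igfals, Prlr and Socs3).
Igfals: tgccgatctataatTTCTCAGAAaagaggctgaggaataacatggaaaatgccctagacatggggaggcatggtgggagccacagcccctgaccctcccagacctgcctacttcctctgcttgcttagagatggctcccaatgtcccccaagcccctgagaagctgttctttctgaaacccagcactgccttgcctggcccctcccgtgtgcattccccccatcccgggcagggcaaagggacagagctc

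**Figure D2:**
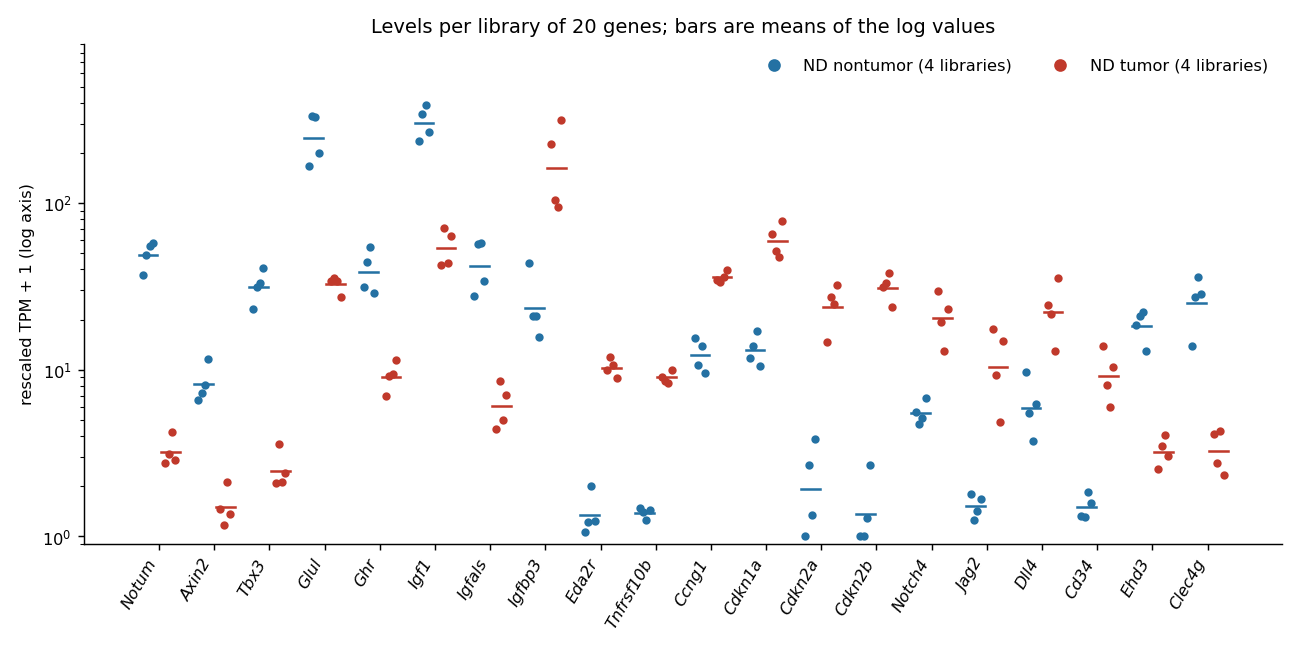
Rescaled TPM + 1 on a log axis in each ND nontumor (blue) and ND tumor (red) library for 20 genes of the WNT, growth hormone, p53, Ink4, Notch and endothelial groups, with 1 point per library and a bar at the group mean of the log values. The groups do not overlap for any of the 20 genes, which were chosen with their values known, against 27.5% of all tested genes.

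Targets of p53 were higher. Of 24 tested genes 16 rose and none fell (median 1.21), and 13 rose on the deposited scale. The death receptor gene Eda2r stood at 0.0627, 0.224, 1.01 and 0.24 rescaled TPM in nontumor and 8.91, 10.9, 9.61 and 7.89 in tumor (2.94 ± 0.25, adjusted p = 6.76e-07). Tnfrsf10b, another death receptor gene, was at 0.475, 0.403, 0.264 and 0.433 against 8.11, 7.58, 7.38 and 8.95 (2.69 ± 0.25, adjusted p = 1.5e-06). All 8 tumor values of these 2 genes lay between 7.38 and 10.9, so the tumors differed little. Bbc3, the proapoptotic protein PUMA (1.59 ± 0.21), Zmat3, an RNA-binding p53 target (1.54 ± 0.19), Ccng1, cyclin G (14.6, 9.69, 12.9 and 8.61 against 33.6, 32.8, 35.2 and 38.9), and Plk2, a polo-like kinase (15, 15.2, 12 and 14.9 against 54, 37.5, 37.2 and 41.9), rose. So did Cdkn1a, the inhibitor p21 (10.8, 13, 16 and 9.57 against 64.2, 50.4, 46.4 and 76.7, 2.18 ± 0.60, adjusted p = 0.0118), and Mdm2, the ubiquitin ligase that limits p53 (1.05 ± 0.24), both named for their roles after their values were seen. As deposited, Mdm2 did not pass.

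The Ink4 inhibitors of cyclin-dependent kinases 4 and 6 rose strongly. Cdkn2b, which encodes p15, was at 0, 0, 0.296 and 1.7 rescaled TPM in nontumor and 30.3, 32.3, 36.8 and 22.7 in tumor (4.51 ± 0.50, adjusted p = 7.14e-06). Cdkn2a, the gene of p16 and p19Arf, was at 0, 1.69, 0.351 and 2.82 against 13.6, 26.5, 23.8 and 31.2 (3.62 ± 0.57, adjusted p = 0.000195), and Cdkn2c, which encodes p18, rose less (1.51 ± 0.38). In both Cdkn2b and Cdkn2a the lowest tumor lay far above the highest nontumor library, which was replicate 4. Their kinase partner Cdk6 (1.00 ± 0.15) and the S phase cyclin Ccne1 (1.39, 0.66, 0.232 and 1.95 against 5.43, 10.4, 8.91 and 4.8) rose too. In contrast E2f8, a repressor of the E2F family, fell (-1.93 ± 0.29). Of 28 tested cyclins, kinases and inhibitors 9 rose and 3 fell (median 0.25), and as deposited 8 rose and 1 fell. In the list of apoptosis and necroptosis 8 of 29 rose and 5 fell (median 0.29), with the necroptosis effector Mlkl (1.57 ± 0.22), the TWEAK receptor gene Tnfrsf12a (13.8, 21.5, 24.1 and 37.6 against 115, 129, 97.1 and 103) and the survival gene Bcl2l1 (1.30 ± 0.27) among the rises. The counts of lower apoptosis genes ranged from 2 to 5 with single libraries left out, and as deposited none fell and 5 rose.

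Part of the translation factors rose. Of 36 translation factors 14 rose and 1 fell (median 0.35), but without nontumor replicate 4 the count of higher genes was 9, and as deposited it was 1. Eef1a1, the elongation factor, went from 757, 797, 871 and 693 to 1299, 1907, 1839 and 1567 rescaled TPM (1.07 ± 0.26, adjusted p = 0.00592) without overlap. Eif4ebp1, the translation repressor and ATF4 target, went from 17.2, 19.8, 24.7 and 16.1 to 67.5, 66.8, 43.7 and 58.7 (1.55 ± 0.31, adjusted p = 0.00135). Of 43 nucleolar factors of ribosome assembly 7 rose and 1 fell (median 0.25), a share of higher genes near the 14.5% of all tested genes, and as deposited 2 rose and none fell. Npm1 (1.37 ± 0.36) and Nop58 (0.87 ± 0.18) were among the higher ones. Of 22 cytosolic aminoacyl-tRNA synthetases 8 rose and 2 fell, with 4 to 7 higher when single libraries were left out and 2 higher and none lower as deposited. Vars (1.23 ± 0.17) and Cars (1.10 ± 0.19) rose, and Aars fell (39.7, 53, 66.7 and 49.8 against 32.2, 24.8, 22.7 and 17.3, -1.09 ± 0.21). Mitochondrial ribosomal proteins (1 rose and 2 fell of 57) and proteasome subunits (1 rose and 1 fell of 38) are to be read against the 28.7% of all genes that passed. Splicing factors leaned the other way, with 7 of 31 lower and 2 higher (median -0.21, but 0.36 as deposited, where none passed, and 0.04 with a common sum). Srsf5 fell from 175, 180.5, 128 and 145 to 63.3, 63.8, 76.7 and 97.1. Hnrnpm went from 18.4, 18.9, 15.6 and 20.1 to 10.1, 9.82, 7.16 and 11.7, and for both genes the groups did not overlap. With a common sum neither passed. As deposited, Eef1a1, Nop58, Aars, Srsf5 and Hnrnpm did not pass.

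Enzymes and carriers that clear drugs, hormones and bile pigments were mostly lower. Of 14 carboxylesterases, which split ester drugs and lipids, 10 fell and 2 rose (median -2.79). Ces1b stood at 59.5, 119, 136 and 164 rescaled TPM in nontumor and 0.541, 5.04, 8.42 and 2.28 in tumor (-4.78 ± 0.43, adjusted p = 9.33e-07). Ces1g was at 36.2, 63.1, 75.7 and 66.6 against 1.16, 10.5, 2.33 and 1.93 (-3.91 ± 0.43, adjusted p = 7.76e-06). Tumor 1 was lowest for both, and every tumor was far below every nontumor library. Of 19 glucuronosyl and sulfotransferases 14 fell and 1 rose (median -1.59). Sult2a8, a bile acid sulfotransferase, went from 323, 421, 444 and 221 to 4.53, 8.19, 3.99 and 3.89 (-5.84 ± 0.39, adjusted p = 4.88e-08). Ugt3a2, a glycosyltransferase, went from 77.4, 139.8, 146 and 78.1 to 6.3, 10.3, 2.72 and 2.89. Both were among the steepest falls of their list. Of 28 solute carriers of hepatocyte membranes 15 fell and 2 rose (median -0.95). The organic anion carrier Slco1b2 fell from 174, 195, 207 and 187 to 31, 32, 10.8 and 20.7 (-3.07 ± 0.39, adjusted p = 2.75e-05). The glycerol channel Aqp9 (-2.20 ± 0.23), the bile acid uptake carrier Slc10a1 (-2.62 ± 0.40), the carnitine carrier Slc22a5 (-2.14 ± 0.24) and the phosphatidylcholine exporter Abcb4 (-1.36 ± 0.15) fell too. As deposited, 9, 7 and 3 members of the 3 lists fell and 2, 0 and 1 rose. Of 21 glutathione S-transferases 9 fell and 1 rose, while as deposited 1 fell and 3 rose. Gstp2, a pi-class transferase, was the one that rose (8.63, 37.5, 24.7 and 22.9 against 143, 357, 310.5 and 196, 3.44 ± 0.54, adjusted p = 0.000211). As deposited, Aqp9, Slc22a5 and Abcb4 did not pass.

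Of 25 enzymes of methionine, folate and one-carbon metabolism, with transsulfuration, which makes cysteine, 12 fell and 2 rose (median -0.31). As deposited 1 fell and 2 rose, with a median of 0.01. Cth, the last enzyme of transsulfuration, stood at 86.1, 156, 148 and 131 rescaled TPM in nontumor and 13.1, 27.1, 19.6 and 17.7 in tumor (-2.70 ± 0.29, adjusted p = 6.69e-06). Bhmt, which remethylates homocysteine with betaine, was at 425, 631, 618 and 368 against 47.7, 114, 45.7 and 148 (-2.66 ± 0.47, adjusted p = 0.000523), with tumors 2 and 4 above tumors 1 and 3. Mat1a, the adult methionine adenosyltransferase, fell from 823, 1025, 994 and 926 to 312, 399, 322 and 209.7. Ahcy, which splits S-adenosylhomocysteine, fell from 548, 588, 621 and 349.8 to 128, 145, 129.7 and 125, and Cbs, the first enzyme of transsulfuration, fell too (-1.38 ± 0.18). No tumor reached a nontumor value for any of the 5 genes. In nucleotide breakdown 8 of 16 fell and 2 rose (median -0.79, and -0.32 as deposited, where 4 fell), with the aldehyde oxidase Aox3 at 98.2, 118, 126 and 116 against 3.69, 8.49, 4.5 and 4.71 (-4.24 ± 0.43, adjusted p = 3.23e-06). Dpyd, which degrades pyrimidines, was at 55.8, 58.6, 81.2 and 44 against 6.6, 10.2, 6.21 and 6.85. In nucleotide synthesis 6 of 29 rose and 4 fell (4 and 0 as deposited), against 14.5% higher and 14.1% lower over all tested genes. The CTP synthase gene Ctps2 went from 3.09, 2.84, 2.31 and 4.3 to 16.2, 18.5, 17 and 12.4 (2.05 ± 0.31, adjusted p = 0.00014). Of 11 polyamine genes 5 rose and 1 fell (median 0.28, and 4 and 0 as deposited). These included Odc1, the rate-limiting decarboxylase and MYC target (1.12 ± 0.19), and the spermine oxidase gene Smox (2.7, 2.31, 4.12 and 7.4 against 13, 21.3, 17.5 and 39.4). As deposited, Bhmt, Mat1a, Ahcy and Cbs did not pass.

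Iron and metal genes changed at both ends. Alas1, the rate-limiting enzyme of liver heme synthesis, stood at 98.2, 146, 138 and 119 rescaled TPM in nontumor and 22.1, 19.8, 17.7 and 11.6 in tumor (-2.77 ± 0.29, adjusted p = 5.08e-06), and Cpox, a later enzyme, fell as well (-1.85 ± 0.24). Hamp, the iron hormone hepcidin, varied widely in nontumor liver (6177, 415, 383 and 2487) and was lower in tumor (33.7, 164, 51.3 and 383, -3.60 ± 0.87, adjusted p = 0.00533), with tumor 4 and nontumor replicate 3 level. Without nontumor replicate 1 the change of Hamp was -2.83, and without tumor 4 it was -4.23. Of 26 iron and heme genes 12 fell and 1 rose (median -0.49, and 0.02 as deposited), but without nontumor replicate 3 the count of lower genes was 7. The metallothioneins, which bind zinc and copper, rose. Mt1 went from 258, 114, 129 and 107 to 2011, 1143, 1437 and 1552 (3.40 ± 0.73, adjusted p = 0.0025). Mt2 went from 22.6, 7.47, 5.59 and 4.82 to 164, 63.6, 182 and 97.1 (3.65 ± 0.61, adjusted p = 0.000312). Every tumor was above every nontumor library for both, and nontumor replicate 1 was the highest of its group. The antioxidant enzymes split. Srxn1, sulfiredoxin, rose (2.07 ± 0.35), while Cat, catalase, fell from 1187, 1763, 1749.6 and 1098 to 391, 687, 359.7 and 352. Gpx1, glutathione peroxidase, fell from 326, 768, 783 and 438 to 146, 123, 89 and 119. Among retinoid genes Rdh16 (-2.98 ± 0.24) and the retinoic acid hydroxylase Cyp26a1 (-2.51 ± 0.44) fell, and Bco1, which cleaves beta-carotene, rose from 8.79, 5.7, 6.06 and 7.98 to 78.9, 54.1, 72.6 and 30.6 (2.82 ± 0.29, adjusted p = 4.76e-06). As deposited, Cpox, Cat and Gpx1 did not pass.

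Secreted plasma proteins did not move as a block. Of 30 coagulation and fibrinolysis genes 7 rose and 7 fell (median -0.07, but 0.59 as deposited, where 6 rose and none fell, and 0.18 with a common sum). Kng2, a kininogen, rose from 199, 169.6, 152 and 206 to 693, 621, 643 and 502 rescaled TPM (1.75 ± 0.19, adjusted p = 7.22e-06). F11, factor XI, rose from 63.2, 65.3, 77.1 and 71 to 315, 258, 216 and 154 (1.71 ± 0.23, adjusted p = 4.49e-05). In contrast F9, factor IX (-1.10 ± 0.21), and Serpinc1, antithrombin (-1.23 ± 0.27), fell. Complement was lower (13 of 24 fell and 1 rose, median -0.57, and 0.07 as deposited, where 4 fell). C6 was at 205, 194, 193 and 102 against 8.37, 14.9, 7.73 and 8.9 (-3.99 ± 0.35, adjusted p = 7.56e-07), with nontumor replicate 4 the lowest of its group. C8b, like C6 a part of the membrane attack complex, was at 66.8, 109, 124 and 58.4 against 10.2, 25.6, 6.92 and 15.2. Mbl1, a mannose-binding lectin, was at 121, 256, 285 and 168 against 55.5, 62.2, 24.3 and 34.5. No tumor reached a nontumor value for any of the 3. Among apolipoproteins and lipid carriers 6 of 29 rose and 10 fell, but only 6 fell without nontumor replicate 3, and as deposited 4 rose and 2 fell. Apoa4, an intestinal and stress-induced hepatic apolipoprotein, rose from 82.8, 79, 53.7 and 78.1 to 1433, 1533, 1068 and 2100.5 (4.35 ± 0.68, adjusted p = 0.000187). Lpl, the lipoprotein lipase that adult hepatocytes hardly express, rose from 8.2, 7.25, 5.25 and 11.1 to 86, 132, 82.6 and 58.2 (3.32 ± 0.40, adjusted p = 1.81e-05). Apoa5, an activator of lipoprotein lipase, fell from 549, 454, 417 and 535 to 61.2, 108, 72.9 and 104. The hepatic lipase gene Lipc fell from 83.7, 125, 122 and 129.8 to 18.5, 25.9, 1.42 and 17.7, with tumor 3 the lowest and a change of -2.42 without it in place of -3.21. Trf, transferrin, had the largest gain in level of all genes that passed, from 1909.6, 2762, 2629 and 2666 to 13642, 13765, 14672 and 7680.3 (2.29 ± 0.50, adjusted p = 0.00264). As deposited, F9, Serpinc1, Mbl1 and Apoa5 did not pass.

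**Figure D3:**
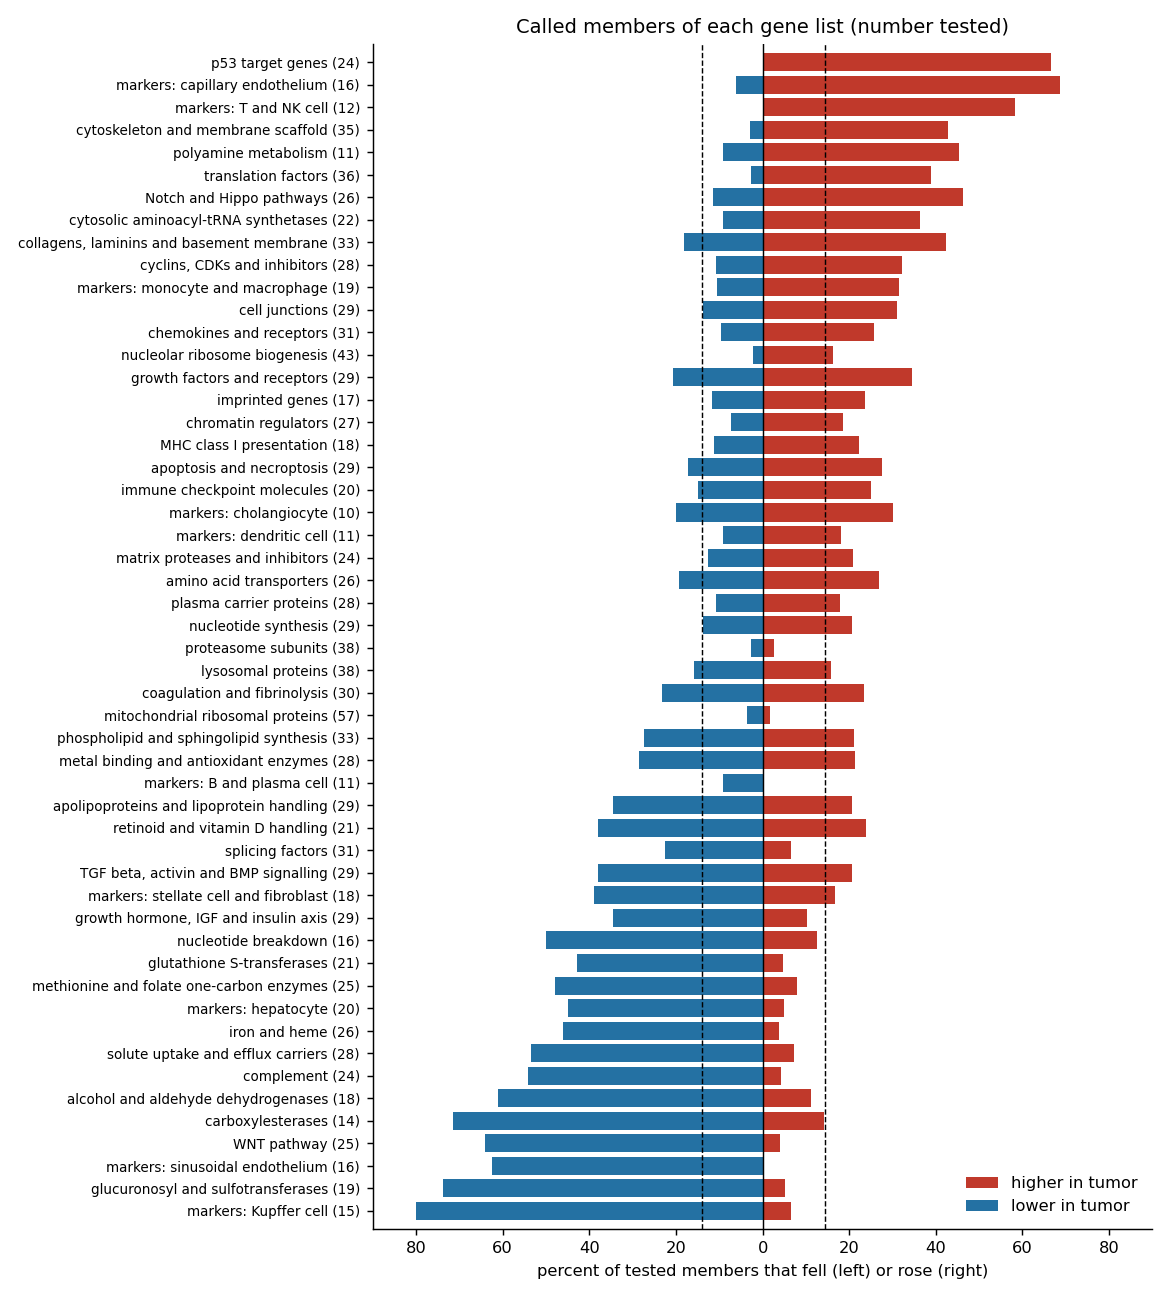
Share of tested members that rose (red, right) and fell (blue, left) in each gene list with at least 10 tested members, in percent, with the numbers of tested members on the labels; dashed lines mark the shares over all tested genes, 14.5% higher and 14.1% lower. Carboxylesterases, Kupffer cell markers and conjugating enzymes extend furthest to the left, capillary endothelium and p53 targets furthest to the right.

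Vessel genes changed in opposite directions. Markers of sinusoidal endothelium fell in 10 of 16 cases (median -1.13). Ehd3, an endocytic ATPase, went from 17.6, 20.02, 21.1 and 11.9 to 1.52, 2.47, 3.04 and 2.05 rescaled TPM (-2.50 ± 0.21, adjusted p = 4.39e-07). The lectin gene Clec4g went from 12.9, 26.3, 35.2 and 27.6 to 3.11, 1.77, 3.28 and 1.32 (-2.94 ± 0.32, adjusted p = 7.14e-06), and Dnase1l3, a secreted DNase, fell too (-2.40 ± 0.34). Not every marker was lower, since the scavenger receptor gene Stab1 (0.10 ± 0.20) did not pass. Markers of capillary and tip-cell endothelium rose in 11 of 16 cases and fell in 1 (median 1.13, summed level 219 to 246 in nontumor and 257 to 401 in tumor). Cd34 was at 0.329, 0.301, 0.845 and 0.583 in nontumor and 12.9, 7.05, 4.98 and 9.38 in tumor (2.61 ± 0.26, adjusted p = 2.84e-06). Emcn, endomucin, was at 0.137, 0.203, 0 and 0.175 against 3.65, 3.4, 1.53 and 3.14. Esm1, a tip-cell proteoglycan, was at 1.94, 0.314, 0.098 and 3.38 against 12, 17, 17.5 and 26. For all 3 the groups did not overlap, although the nontumor libraries differed widely for Esm1. The general endothelial gene Pecam1 rose from 8.04, 8.18, 6.76 and 7.13 to 35.9, 17.1, 21.2 and 19.9, and Cdh5 rose as well (1.51 ± 0.26). Not every capillary marker rose, since Eng and Plvap, the most abundant of those not called, did not pass. The counts of called sinusoidal and capillary markers were 3 lower and 8 higher as deposited.

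Notch genes of vessels rose beside them. The receptor Notch4 stood at 4.61, 3.76, 4.1 and 5.74 rescaled TPM in nontumor and 28.6, 18.3, 12 and 22.3 in tumor (1.89 ± 0.21, adjusted p = 7.76e-06). The ligand Jag2 was at 0.796, 0.252, 0.413 and 0.678 against 16.5, 8.29, 3.87 and 13.8 (2.78 ± 0.31, adjusted p = 7.86e-06). Hey1, a repressor and Notch target, was at 0.962, 0.202, 0.503 and 0.145 against 4.95, 3.82, 4.02 and 4.74 (1.92 ± 0.23, adjusted p = 1.88e-05). The groups did not overlap for these 3 genes. Dll4, the ligand of tip cells, was at 8.68, 4.5, 2.72 and 5.27 against 23.5, 20.5, 11.9 and 34.4 (1.90 ± 0.32, adjusted p = 0.000324). Tumor 3 was the lowest of the 4 tumors for Notch4, Jag2 and Dll4, and for Cd34 and Emcn. Of 26 Notch and Hippo genes 12 rose and 3 fell (median 0.57), with 7 higher when the 8 ND libraries were fitted alone. Dll1 fell (-1.16 ± 0.20) and Sox9, a progenitor and duct factor, rose (1.23 ± 0.23), while Yap1 (0.08 ± 0.17) did not pass. The part of endothelial abundance in the Notch values was not tested. As deposited, Dll1 did not pass.

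Basement membrane and cytoskeleton genes rose more often than they fell. Of 33 collagens, laminins and nidogens 14 rose and 6 fell (median 0.60), and as deposited 11 rose and 2 fell. Nid1, which links laminin to collagen IV, went from 1.57, 2.12, 1.09 and 2.52 to 20.2, 26.6, 24.2 and 23.4 rescaled TPM (3.14 ± 0.34, adjusted p = 6.67e-06). Lama5, a laminin chain, went from 3.99, 4.07, 5.75 and 6.1 to 43.8, 28.9, 34.8 and 24.9 (2.50 ± 0.33, adjusted p = 3.97e-05). Col15a1, a basement membrane collagen, went from 1.48, 1.73, 1.04 and 1.71 to 16, 7.98, 7.36 and 7.4. Every tumor was above every nontumor library for these genes. Col27a1, a fibrillar collagen, fell from 42.2, 35.4, 31.9 and 32.1 to 6.3, 1.75, 5.09 and 5.13 (-2.79 ± 0.31, adjusted p = 8.49e-06). The fibroblast and stellate cell markers were mixed (3 of 18 rose and 7 fell, summed level 305 to 399 in nontumor and 174 to 316 in tumor), and as deposited 3 rose and 2 fell. Dcn, decorin, was at 58.7, 50.9, 34.8 and 27.8 against 2.91, 3.42, 9.33 and 12.4 (-2.60 ± 0.43), and Lrat, the retinol-storing enzyme of stellate cells, fell (-1.67 ± 0.27). Of 35 cytoskeletal and scaffold genes 15 rose and 1 fell (median 0.87), and as deposited 11 rose and 1 fell. The tubulin gene Tuba1b rose from 20.7, 25.2, 26.2 and 21.7 to 74.4, 62.9, 75 and 50.3. Anxa2, annexin A2, rose from 9.61, 5.47, 7.32 and 16.1 to 81.9, 45.2, 54.1 and 71.4 (2.65 ± 0.50, adjusted p = 0.000845), and so did Tubb6 (1.37 ± 0.25) and the actin-bundling gene Fscn1 (1.93 ± 0.33). At cell junctions 9 of 29 rose and 4 fell, and as deposited 3 rose and none fell. Cdh1, E-cadherin, rose from 6.26, 12.1, 9.48 and 8.05 to 47.8, 55.1, 31.6 and 35.1 (2.12 ± 0.28, adjusted p = 4.1e-05). Cdh2, N-cadherin, fell (-0.83 ± 0.15), and the gap junction gene Gjb2 fell (-1.25 ± 0.19). Cd63, a tetraspanin of late endosomes and exosomes, rose from 10.6, 5.31, 5.41 and 12.4 to 112, 139.9, 118 and 127 (3.81 ± 0.51, adjusted p = 5.01e-05), the smallest p of the lysosomal list. As deposited, Cdh2 and Gjb2 did not pass.

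Signals between cells changed in both directions. Cxcl12, the chemokine that retains CXCR4-bearing cells, fell from 38.9, 38.9, 39.9 and 36.1 to 4.58, 5.85, 6.18 and 7.3 rescaled TPM (-2.51 ± 0.17, adjusted p = 4.88e-08). Its receptor gene Cxcr4 rose from 9.3, 3.16, 2.95 and 7.31 to 39.4, 23.8, 18.7 and 75.2 (2.52 ± 0.47, adjusted p = 0.000826). Ccl8 was at 0, 0, 0 and 0.924 against 37.9, 3.1, 29.5 and 13.3 (3.79 ± 0.50), with tumor 2 the lowest and a change of 4.45 without it. Ccl5 rose as well (1.94 ± 0.34). Of 31 chemokine genes 8 rose and 3 fell (median 0.75). In the TGF beta family 6 of 29 rose and 11 fell (median -0.12, but 0.23 as deposited, where 5 rose and 4 fell, and 0.11 with a common sum). Gdf2, the BMP9 made by stellate cells, was at 8.29, 10.5, 6.26 and 4.9 against 0, 0, 0 and 1.27 (-2.74 ± 0.31). Smad6, an inhibitor and BMP target, was at 12.6, 9.45, 7.69 and 12.5 against 2.39, 1.97, 1.68 and 3.09 (-1.81 ± 0.19, adjusted p = 5.03e-06). Bmp2 fell (-1.68 ± 0.29) while Bmp4 rose (1.56 ± 0.25). Of 29 growth factor genes 10 rose and 6 fell, and as deposited 8 rose and none fell. The EGF family ligand Areg was listed at 0 in all nontumor libraries and at 5.42, 1.14, 16.7 and 5.59 in tumors. Pdgfb, a ligand that recruits pericytes, rose from 6.53, 2.85, 2.02 and 6.13 to 29.5, 13.9, 18.8 and 17.7 (2.02 ± 0.29, adjusted p = 0.0001), and Fgfr3 fell (-1.06 ± 0.20). Vegfa did not pass (-0.21 ± 0.34, adjusted p = 0.684). As deposited, Smad6, Bmp2 and Fgfr3 did not pass.

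Immune markers gave a mixed picture. Of 15 tested Kupffer cell markers 12 fell and 1 rose (median -2.58, summed level 661 to 766 in nontumor and 216 to 241 in tumor). Timd4, a receptor for dying cells, went from 8.84, 13.2, 12.9 and 6.95 to 1.37, 0, 0 and 0.25 rescaled TPM (-3.09 ± 0.31, adjusted p = 2.89e-06). The hemoglobin scavenger receptor gene Cd163 went from 8.73, 14.7, 12.7 and 6.83 to 1.87, 0.435, 1.05 and 0.523 (-2.58 ± 0.30). Neither gene overlapped between the groups. Complement C6 is on this list too. Of 19 monocyte and macrophage markers 6 rose and 2 fell, and as deposited 3 rose and none fell. Their summed level was 6835 to 18968 in nontumor and 5637 to 9996 in tumor. This sum is not specific to macrophages, since it includes Apoe, the most abundant member that did not pass, which is on the apolipoprotein list too. Among the monocyte and macrophage markers Cd14 rose from 8.53, 6.97, 9.25 and 7.91 to 145, 44.3, 54.8 and 61.3 (2.92 ± 0.41, adjusted p = 6.89e-05), with tumor 1 the highest. Of 19 listed T and NK cell genes 12 were tested. A gene low in nontumor liver could pass the level filter through tumor libraries alone, so the filter may shape the balance of directions. Among the 12, 7 rose and none fell, but 4 to 7 rose with single libraries left out. Cd3d, a chain of the T cell receptor complex, was at 0.204, 0.242, 0.453 and 0.52 against 3.4, 0.654, 2.28 and 2.99 (1.21 ± 0.29). Cd8b1, a CD8 chain, was at 2.99, 0.888, 1.52 and 0 against 6.02, 2.13, 7.51 and 5.68. Tumor 2 was the lowest tumor for both, and for Cd8b1 it lay within the nontumor range. The other CD8 chain gene, Cd8a, and the granzyme gene Gzmb did not pass. Of the 12 T and NK cell genes 3 did not overlap between the groups, against 27.5% of all tested genes. Of 18 class I presentation genes 4 rose and 2 fell, against 14.5% higher and 14.1% lower over all tested genes, and as deposited 2 rose and none fell. The nonclassical class I gene H2-Q6 rose from 137, 83.3, 91.5 and 129.6 to 409, 281, 382 and 280.0 (1.62 ± 0.21, adjusted p = 4.17e-05). B2m, the shared light chain, fell from 7139, 9416, 11256 and 8671 to 3808, 4799.7, 3109 and 2653 (-1.36 ± 0.34, adjusted p = 0.00664). Cd276, the checkpoint ligand B7-H3, rose from 0.556, 1.56, 1.57 and 4.26 to 9.94, 7.73, 12.3 and 5.5 (1.81 ± 0.31), and Cd274, PD-L1, rose as well (0.73 ± 0.20). Of 8 red blood cell genes 5 fell and 1 rose. The globin gene Hba-a1 fell from 2204, 803, 2536 and 4926 to 257, 173, 195 and 1079 (-2.80 ± 0.71, adjusted p = 0.00752), with tumor 4 within the nontumor range and a change of -3.39 without it. As deposited, B2m and Cd274 did not pass.

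Spread within the groups was of similar size. The median SD over 4 libraries of log2(rescaled TPM + 1) was 0.34 in tumor and 0.29 in nontumor liver. Among genes with a group mean of at least 10, 6 of the 10 with the largest spread over tumors, predicted and clone names left aside, were microRNA or small nucleolar RNA genes. Cep85, a centrosomal protein, was at 53, 1203, 1982 and 43 rescaled TPM in tumors 1 to 4 and at 605, 437, 467 and 523 in nontumor liver, so tumors 2 and 3 lay above and tumors 1 and 4 below all nontumor libraries. H19, the imprinted fetal RNA, was at 1.05, 1.25, 2.25 and 88.9 in nontumor and 22.3, 253, 104 and 412 in tumor (4.39 ± 1.43, adjusted p = 0.0295), where nontumor replicate 4 lay above tumor 1. The call of H19 held when nontumor replicate 4 or tumor 1 was left out and was lost without any of the other 6 libraries, with a highest adjusted p of 0.0839. Its change was 5.68 without nontumor replicate 4 and 5.2 without tumor 1, and as low as 3.82 without tumor 4. S100g, a calcium-binding protein listed at 0 in nontumor liver, was at 8.41, 8.65, 0 and 62.8. Among other imprinted genes Peg3 fell from 10.6, 8.46, 5.04 and 11.8 to 0.203, 0.232, 0.963 and 0.0798 (-2.85 ± 0.26, adjusted p = 1.43e-06). Lars2, a mitochondrial leucyl-tRNA synthetase gene, was at 288, 511, 147 and 16538 in nontumor liver and 596, 628, 633 and 367 in tumor. Mir6236 was at 4.51, 12.5, 0 and 407 in nontumor liver. Both stood out in nontumor replicate 4, the library whose listed genes held 7.38% of its TPM total, and the cause was not tested. A principal component analysis of the 8 libraries put 58.1% of the variance on a component that separated the 4 tumor from the 4 nontumor libraries, and 10.8% on the next.

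**Figure D4:**
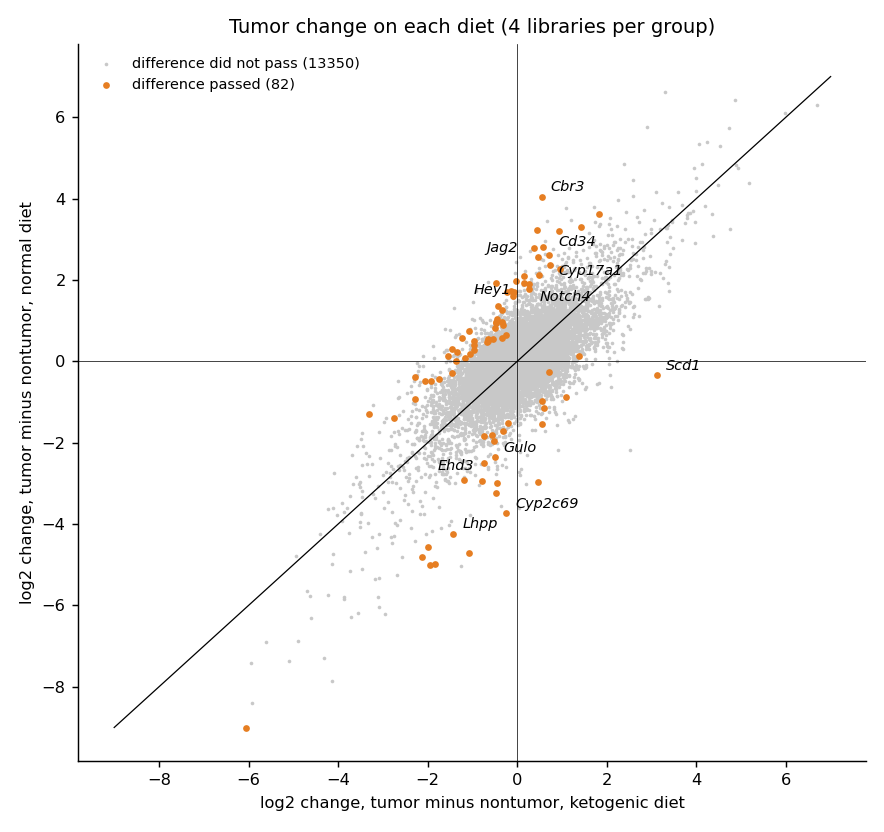
Tumor minus nontumor log2 change of each tested gene on the ketogenic diet (x axis) and the normal diet (y axis), 4 libraries per group; the 82 genes with an adjusted p under 0.05 for the difference between the diets are orange and labelled where described. The line marks equal changes, and Lhpp, Cyp2c69 and Scd1 lie below it and Cbr3 and Jag2 above.

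The tumor change on the normal diet was set against that on the ketogenic diet, which shares no libraries with it, by a test of the difference. Of 13432 genes 82 (0.61%) differed, 55 (0.409%) with a higher change on ND and 27 (0.201%) with a lower one. The count was sensitive, ranging from 9 to 187 when single ND libraries were left out, with 9 without nontumor replicate 2 and 187 without nontumor replicate 4, and it was 14 as deposited. Lhpp, a histidine phosphatase, fell on ND from 58, 99.8, 126 and 74.5 to 4.93, 3.11, 5.06 and 2.08 rescaled TPM (-4.23 ± 0.28), against -1.43 on KD (difference -2.81, adjusted p = 0.0139). Cyp17a1, the steroid 17-hydroxylase, rose on ND from 8.94, 8.56, 6.75 and 7.67 to 52.9, 34.1, 50.4 and 46.9 (2.38 ± 0.17), against 0.73 on KD (difference 1.65, adjusted p = 0.0139). Cbr3, a carbonyl reductase, rose on ND from 0.442, 2.45, 1.8 and 0.377 to 37, 55.2, 43.3 and 14.1 (4.04 ± 0.39), against 0.54 on KD (difference 3.50, adjusted p = 0.0175). In these genes the ND tumors did not overlap ND nontumor liver. Gulo, which makes vitamin C in mice, fell on ND (-2.35 ± 0.21), against -0.51 on KD (difference -1.85, adjusted p = 0.0175). Scd1, the stearoyl-CoA desaturase, did not pass on ND (1071, 997, 882 and 948 against 1036, 1143, 652 and 454, -0.34 ± 0.39), against 3.12 on KD (difference -3.46, adjusted p = 0.0175). The differences of these 5 genes passed with each ND library left out, but on the deposited scale that of Cbr3 alone among them passed, and with voom on recovered reads that of Cbr3 was lost. KD libraries were not left out in turn, so the hold of single KD libraries on any difference was not examined. KD nontumor replicates 3 and 4 had the lowest array weights of the 16 libraries (0.307 and 0.488).

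Vessel and Notch genes were among those that differed. The changes on ND and KD were 1.89 ± 0.21 and 0.26 for Notch4 (difference 1.63, adjusted p = 0.0262). They were 2.78 ± 0.31 and 0.37 for Jag2 (difference 2.41, adjusted p = 0.0262) and 1.92 ± 0.23 and 0.16 for Hey1 (difference 1.76, adjusted p = 0.0275). Cd34 (2.61 ± 0.26 and 0.71, difference 1.90, adjusted p = 0.0299) rose more on ND, and Ehd3 (-2.50 ± 0.21 and -0.73, difference -1.77, adjusted p = 0.0175) fell more. The P450 gene Cyp2c69 stood on ND at 20.7, 28.1, 39 and 12.4 rescaled TPM in nontumor and 1.87, 0.579, 1.37 and 0 in tumor, and its changes were -3.74 ± 0.41 on ND and -0.24 on KD (difference -3.50, adjusted p = 0.0175). Without ND nontumor replicate 2 the differences of all 6 genes no longer passed, with adjusted p from 0.0602 to 0.0778. Those of Notch4, Jag2, Hey1 and Cd34 were also lost without nontumor replicate 3 or tumor 1, and that of Cd34 without nontumor replicate 1. As deposited, the difference of Jag2 alone among the 6 passed. With voom on recovered reads and with pseudocount 0.1 the differences of Jag2, Hey1, Cd34 and Cyp2c69 did not pass. Those of Jag2 and Cd34 did not pass without the filter, and that of Notch4 did not pass with length and GC trends removed. With the replicate block those of Notch4, Hey1 and Cd34 did not pass.

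**Figure D5:**
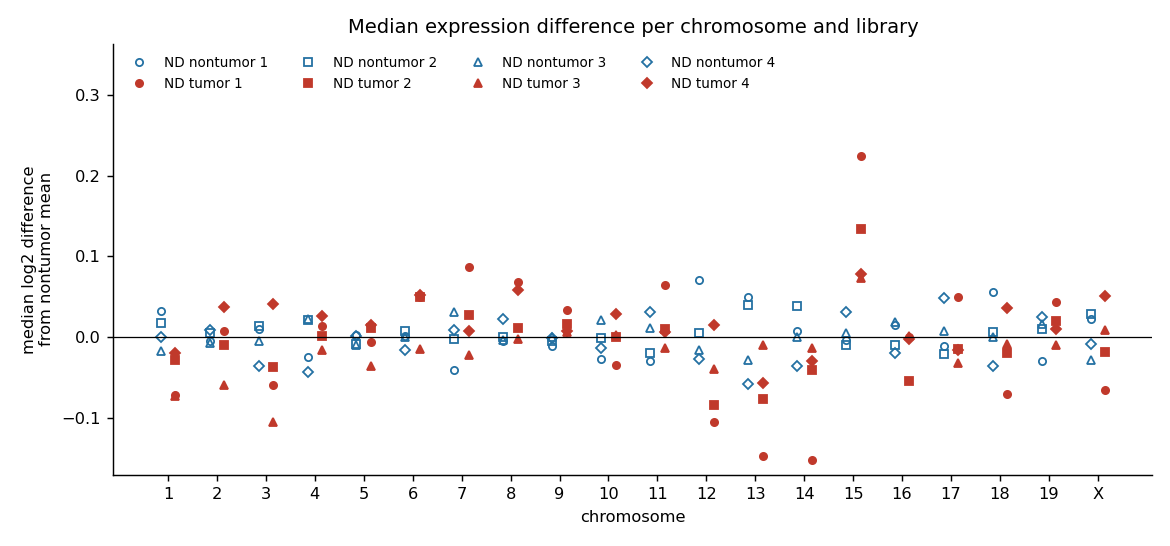
Median log2 difference of each ND tumor library (4 red symbols) and each ND nontumor library (4 blue symbols) from the mean of the nontumor libraries, over the tested genes of each chromosome. On chromosome 15 all 4 tumors lie above 0, from 0.07 to 0.22, and on chromosome 9 they do so too, from 0.007 to 0.033.

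By position, the median change of a chromosome stayed within -0.08 and 0.05 on the other chromosomes and was 0.09 on chromosome 15. In tumors 1 to 4 the chromosome 15 medians were 0.22, 0.13, 0.07 and 0.08. Single libraries moved on other chromosomes too, with -0.15 for tumor 1 on chromosomes 13 and 14 and 0.07 for nontumor replicate 1 on chromosome 12. Of the 525 tested genes of chromosome 15, 19.8% were higher and 12% lower. A run of 6 adjacent higher genes lay at chr15:73090392-73758766, with Chrac1, Ago2, Ptk2, Dennd3, Slc45a4 and Ptp4a3 (median 0.75). By gene class, protein-coding genes split evenly (1784 higher and 1780 lower of 12149), long intergenic RNA genes leaned higher (40 and 21 of 157) and processed pseudogenes more so (49 and 9 of 291). Pseudogene reads cannot be told apart from those of their parent genes where the sequences match.

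Letters that known factors bind were counted in promoters by the direction and size of the change. The letters TGANTCA, which AP-1 factors are known to bind, were in 27 of the 182 promoters of genes with a called log2 rise over 2 (14.8%), against 6.66% of the 10291 tested genes in the table, 8.97% of all promoters and 9.46% of genes with a called fall under -2. Sprr1a, Anxa2, Mt2, Srxn1, Gstp2 and Tmem54 were among the 27. The letters CAAAGTCCA, a form of the site that HNF4 is known to bind, were in 8 of 222 promoters of genes with a called fall under -2 (3.6%), namely Cyp8b1, Cyp3a11, Cyp2c40, Cyp2c67, Cyp2c69, Nat8, Aadat and Csrp3, against 0 of the 182, 0.67% of tested genes and 0.56% of all promoters. The letters CACGTG, an E-box that MYC is known to bind, were in 11.6% of higher, 11.9% of lower and 11.5% of tested genes. Past a log2 change of 2 they were in 9.34% of higher and 4.5% of lower genes. TGATGNAA, bound by ATF4 with C/EBP, was in 5 of 15 aminoacyl-tRNA synthetase promoters, against 2.89% of tested genes and 4.51% of all. Of these 5, Gars rose, Aars fell, and Iars, Tars and Yars did not pass. A total of 10 motifs were searched on both strands of 300-base windows from 250 bases before to 50 after the RefSeq start, matches of different motifs may overlap, and a match describes the letters only. The bases before the starts of Sprr1a (GRCm38.p6, chr3:92485882-92486131, minus strand, 2 AP-1 matches at 146 and 116 bases before the start) and Cyp2c69 (chr19:39886770-39887019, minus strand, 1 HNF4 match at 75 bases before the start) are shown with the matches in capitals.
Sprr1a: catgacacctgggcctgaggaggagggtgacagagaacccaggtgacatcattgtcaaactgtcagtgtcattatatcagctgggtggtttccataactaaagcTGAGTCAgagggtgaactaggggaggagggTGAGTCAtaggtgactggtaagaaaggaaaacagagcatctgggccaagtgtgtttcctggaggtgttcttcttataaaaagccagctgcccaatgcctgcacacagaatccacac
Cyp2c69: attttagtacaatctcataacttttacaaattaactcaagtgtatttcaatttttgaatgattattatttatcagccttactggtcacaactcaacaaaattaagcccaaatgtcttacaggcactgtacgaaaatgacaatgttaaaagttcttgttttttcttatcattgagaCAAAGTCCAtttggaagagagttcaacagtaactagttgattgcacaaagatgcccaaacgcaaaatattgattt

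Some genes differed little. For 1211 genes the 95% interval of the change lay within -0.5 and 0.5. The most abundant of them included F12, factor XII (415, 539.7, 533 and 598 rescaled TPM in nontumor, 601, 608, 349 and 480.2 in tumor, interval -0.50 to 0.39) and Sdc4, a cell surface proteoglycan (interval -0.41 to 0.50). The groups overlapped for both.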

How the data were processed

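RNA-seq libraries of 16 liver samples were compared, 8 of them on the normal diet. Per the file headers the authors deposited TPM values for 20601 genes. The submitters' processing notes name FastQC, HISAT2, SAMtools, featureCounts and mm10, and the step from counts to TPM is not given in the sources used here. Column names with NDP and KDP were matched to titles with NDN and KDN by diet, tissue and number.

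TPM were divided by median-of-ratios factors over 11798 genes. limma 3.58.1 (R 4.3.3) was fitted with a mean-variance trend to log2(rescaled TPM + 1) of 13432 genes with at least 1 TPM in 4 of 16 libraries, with 4 group means, Benjamini-Hochberg adjustment over all genes and a threshold of 0.05. In a simulation of this comparison over 13432 genes with normal noise, 200 genes were changed. They were drawn only from genes with a mean over the 16 libraries above 5 rescaled TPM. Shifts were added on the log2(rescaled TPM + 1) scale, so the added 1 did not shrink them. Of 2-fold shifts 56% and of 4-fold shifts 96% were recovered, and 5 unchanged genes were called. Recovery for lower genes was not measured. Whole reads were recovered for all 20601 genes within 0.001 reads, and voom on them was added after the data were seen.

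The members and gene lists were chosen with earlier results of these data known. Genes named are the largest changes, the largest gains and losses of level, up to 6 per list by p-value, genes near absent in a group, the most variable genes and the strongest differences between diets. The text names part of each set. Exceptions are stated. Positions are from GENCODE M21 (GRCm38), which matched 19991 symbols once, 579 never and 31 more than once. Promoters are RefSeq's for GRCm38.p6, and 10291 of the tested genes had one. Alternatives were other scales, pseudocount 0.1, no filter, a replicate block, array weights, the 8 ND libraries alone, length and GC trends removed, a minimum fold and each ND library left out.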

Additional observations from a re-analysis of the deposited data

Results flagged for a closer look

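In the groups of 4 libraries, 1 value stood apart by Dixon's criterion in 24 of 370 groups of the named genes, where chance gives about 1 in 20. In nontumor replicate 4 the rescaled TPM of H19 was 88.9, of C6 102, of Slc1a2 8.23 and of Ccl8 0.924. Nontumor replicate 1 stood apart for Trf (1909.6), Lipc (83.7), Socs2 (34.8), Rdh16 (17.5) and Prlr (5.37), and nontumor replicate 3 for Apoa4 (53.7), Plk2 (12) and Fscn1 (3). Among tumors, replicate 4 stood apart for Trf (7680.3), Lars2 (367), Mup11 (12.7), Gdf2 (1.27) and Rdh16 (0.459). Tumor replicate 2 did so for Cat (687), F9 (50) and Wnt9b (0.438), tumor replicate 1 for Gulo (24) and Col15a1 (16), and tumor replicate 3 for Lipc (1.42) and Lgr5 (0.84). The listed genes of nontumor replicate 4 held 7.38% of its TPM total, apart from the other 3 nontumor libraries.

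The tumor change differed between the diets by the interaction test of limma for 11 named genes. The difference, ND minus KD in log2 units, was 3.50 for Cbr3, 2.41 for Jag2, 1.90 for Cd34, 1.76 for Hey1, 1.65 for Cyp17a1 and 1.63 for Notch4. It was -1.77 for Ehd3, -1.85 for Gulo, -2.81 for Lhpp, -3.46 for Scd1 and -3.50 for Cyp2c69.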

How the results depend on the processing

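The 3852 genes that passed on the normal diet became 1418 on the deposited scale and 2069 with a cut on the estimated log2 change of 1. They became 3086 to 3813 with single ND libraries left out. The 82 genes that differed between the diets became 14 on the deposited scale, 536 with a common sum, 32 without the filter and 393 with array weights. They became 9 to 187 with single ND libraries left out, and KD libraries were not left out. The cause was not tested. Deviations from the group means correlated at -0.112, 0.141, -0.109 and -0.066 between tumor and nontumor libraries of equal numbers 1 to 4. For unequal numbers the correlations ranged from -0.23 to 0.181. Deviations within 4 libraries also carry differences between libraries, so these values cannot tell whether equal numbers share a mouse. The labels do not say so, and the replicate block may only share a number. With it 3466 genes passed on the normal diet and 33 differed between diets. Of 169 named genes that passed, 127 passed as deposited, 166 with every single library left out, and none changed sign in any setting tried. Most of them were chosen for large changes or small p in these same data, so they do not stand for all genes. Of all 3852 genes that passed, 1324 also passed as deposited, and 3029 to 3388 with single ND libraries left out.

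Among the 16 named genes that did not pass, signs changed in 29 cases. As deposited the log2 changes were 0.61 for F12, 0.09 for Fzd5, 0.16 for Lars2, 0.48 for Myc, 0.33 for Scd1, 0.49 for Stat5b, 0.09 for Tcf7l2 and 0.44 for Vegfa. With a common sum they were 0.20 for F12, 0.07 for Fzd5, 0.17 for Myc, 0.13 for Stat5b and 0.04 for Vegfa. With array weights they were 0.00 for F12, 0.22 for Lars2 and -0.04 for Sdc4. With single libraries left out they ranged from -1.83 to 0.00 for Cep85, -0.16 to 0.12 for F12, -1.31 to 0.96 for Lars2, -2.52 to 0.37 for Mir6236, -0.26 to 0.11 for Myc, -0.07 to 0.11 for Sdc4, -0.01 to 0.19 for Stab1, -0.19 to 0.04 for Stat5b, -0.62 to 0.07 for Vegfa and -0.02 to 0.17 for Yap1. Depth limits low genes, since nontumor replicate 4 holds 3518966 reads.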
